A study of Mus musculus with 4 samples.

Results

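The genes described here belong to the families that carry cargo along cilia or build the axoneme, the microtubule core of the cilium. The rule that picks them reads the symbol alone, taking the genes named Ift, Bbs, Tctn, Rsph or Spag with a number, and Dnali1. Of the 23420 genes in the deposited tables, 42 matched, namely 13 Ift, 8 Bbs, 3 Tctn, 6 Rsph and 11 Spag genes and Dnali1. The same rule asked for the axonemal dynein heavy chains under the symbol Dnah, and no gene was listed under it. The tables use the older symbol Dnahc for 11 of these genes, which are described with the related genes below.

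RNA from sorted cells of the mouse cochlea was sequenced in 4 groups of 3 replicates. The cochleae came from CD1 mice at postnatal day 1 that carried the Atoh1-GFP transgene, in which an enhancer of Atoh1, the hair cell transcription factor, drives GFP. The organs were cultured overnight and then kept for 3 h with 0.5 mM gentamicin, an aminoglycoside antibiotic that kills hair cells, or left untreated. They were then sorted into GFP positive hair cells and GFP negative non-hair cells. The groups are therefore control hair cells, gentamicin-treated hair cells, control non-hair cells and gentamicin-treated non-hair cells, and all 4 carry the transgene. Cells with weak GFP were left out of the sort, and the GFP negative cells are a mixture of supporting cells, the epithelial ridges and the tissue around them.

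Cilia are assembled by intraflagellar transport (IFT). In IFT the IFT-B complex is needed mainly for transport by kinesin towards the tip, and the IFT-A complex mainly for the return by dynein. The BBSome, a coat-like complex assembled with the help of chaperonin-like BBS proteins, moves membrane proteins in and out of the cilium, and the tectonics belong to the transition zone, the gate at its base. In motile cilia the axoneme also holds dynein arms, radial spokes and a central pair of microtubules, on which the Rsph proteins and several Spag proteins sit. The hair bundle of a young cochlear hair cell carries a single true cilium, the kinocilium, which in mammals is later lost from the cochlea, while supporting cells carry primary cilia. Other genes named Spag, for sperm-associated antigen, have roles outside the cilium.

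The deposited value of a gene is a score, proportional to its reads in that replicate with 1 added, so that a score of 1 means no read. The libraries held between 22399803 and 28151367 reads on genes. A log2 difference is taken on the score as deposited, and the added 1 makes it smaller than the true one in genes near that floor. A gene is called when its unadjusted p is below 0.01 and the difference exceeds 1.2-fold, and the Benjamini-Hochberg adjusted p of limma over the 16086 genes tested is given beside it. Of 11 listed hair cell markers, the 10 with a value were all higher in control hair cells. Their summed score in control non-hair cells was 2.14% of that in hair cells. The 8 mesenchyme and 6 glial markers were all called lower in control hair cells. The 11 supporting cell markers did not separate the sorts, with 2 called higher in control hair cells, 1 lower and 8 not called. They summed to 2555 to 3202 in control hair cells and to 2631 to 4692 in control non-hair cells. These are bulk samples, in which fewer cells of a type and less RNA per cell cannot be told apart.

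Most of these genes were higher in hair cells. Of the 39 members with enough reads to test, 30 were called higher in control hair cells than in control non-hair cells, 3 were called lower and 6 were not called. That is 76.9% called higher, against 28.1% of all genes tested, and 7.69% called lower, against 37.7%. The median log2 difference was 1.14 in the members and -0.12 over all genes, and the replicates of both populations did not overlap in 34 of the 39, against 79.1% of all genes tested. The motile axoneme genes had the largest differences, with a median of 1.93 over 9 genes and all 9 higher. Among these 9, Spag6, Spag16, Rsph4a and Dnali1 passed the minimum of 100 reads only through their hair cell reads. For them, being tested already required high hair cell values, so their direction was partly set by the filter. The genes of IFT, the BBSome and its chaperonins had a median of 0.94, with 16 of 21 higher, 1 lower and 4 not called. Rsph6a, Spag11a and Spag11b could not be tested, with 27, 0 and 1 reads in all. Control hair cells replicate 2 held the most mesenchyme marker score of its group and control non-hair cells replicate 1 the most globin score. With each library left out in turn, 28 to 30 members were higher and 3 lower.

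**Figure D1:**
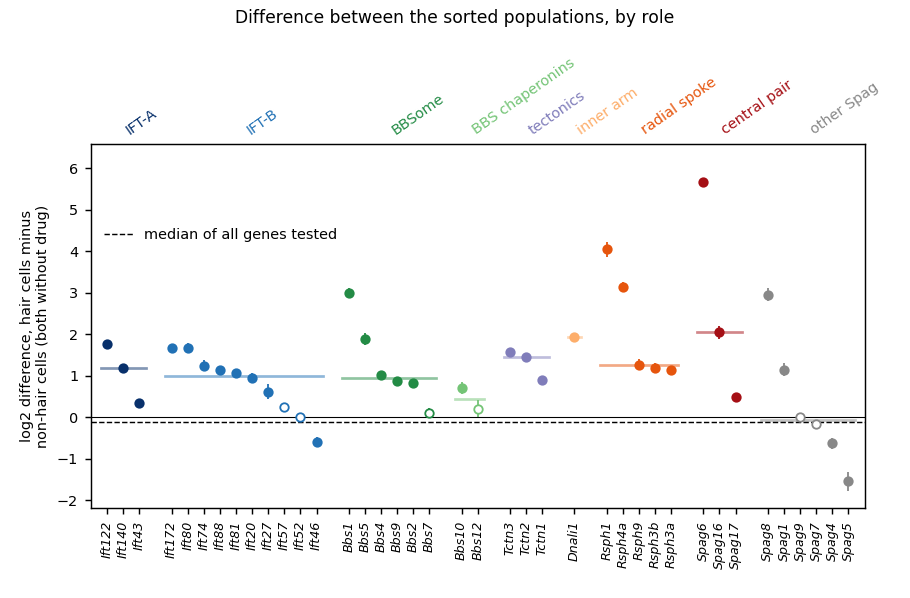
Log2 difference, control hair cells minus control non-hair cells, for the 39 tested members, grouped by role, with bars for the standard error of limma and 3 replicates in each group. Filled points were called and open ones not, short lines are role medians and the dashed line is the median of all genes. Values above 0 are higher in hair cells, and the difference runs from 5.67 for Spag6 to -1.55 for Spag5.

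Within IFT-A, needed mainly for retrograde transport, all 3 members were higher in hair cells. Ift122 scored 141, 133 and 138 in control hair cells and 41.5, 37.6 and 41.3 in control non-hair cells. The groups did not overlap, and the log2 difference was 1.78 ± 0.07 (SE) at an adjusted p of 1.25e-09 (limma, Benjamini-Hochberg). Ift140 scored 118, 114 and 115 against 52.2, 51.6 and 49.0, a difference of 1.19 ± 0.05 on the log2 scale. Its groups were likewise far apart. Ift43, the smallest of these proteins, differed least, with 30.8, 28.0 and 28.1 against 23.1, 21.2 and 24.7. Its difference of 0.33 ± 0.11 lost its call in 5 of the 6 fits that left out a library, all but the one without control non-hair cells replicate 3, with values of 0.28 to 0.36.

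The 10 genes of IFT-B ranged more widely. Of these, 7 were higher, 1 was lower and 2 were not called, and their median log2 difference was 1.00. Ift172, a large peripheral subunit, had the largest difference of the group. It scored 283, 282 and 285 in control hair cells and 93.8, 93.8 and 79.0 in control non-hair cells, giving a log2 difference of 1.68 ± 0.10 at an adjusted p of 3.38e-08 (limma, Benjamini-Hochberg). Ift80 was close to it, with 136, 124 and 131 against 46.0, 40.3 and 37.4 and a log2 difference of 1.66 ± 0.12. The tubulin-binding pair Ift74 and Ift81 and the core subunit Ift88 differed by 1.24, 1.06 and 1.14, and Ift20, which also works at the Golgi, by 0.94. Ift27, a small GTPase, scored 26.6 to 35.2 against 16.7 to 26.3, so that its replicates nearly met. Its difference of 0.61 ± 0.18 lost its call in 4 of 6 fits without a library, those without replicate 1 or 2 of control hair cells or replicate 2 or 3 of control non-hair cells, with values of 0.49 to 0.62.

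Ift46 was the one IFT gene called in the other direction. It scored 41.0, 38.2 and 36.7 in control hair cells and 67.2, 54.4 and 55.2 in control non-hair cells, without overlap. The log2 difference was -0.60 ± 0.12 at an adjusted p of 0.000802 (limma, Benjamini-Hochberg). Ift52, which sits in the core of IFT-B, scored 42.6, 45.3 and 46.2 against 47.6, 41.4 and 43.9, with overlapping groups and a difference of 0.01. Ift57 gave 0.24 ± 0.11 and was not called. The members of the complex thus ranged from 1.68 to -0.60 on the log2 scale.

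Of the 6 BBSome subunits, 5 were higher in hair cells and Bbs7 was not called. Bbs1, which binds the recruiting GTPase Arl6, stood apart from the rest. It scored 198, 221 and 253 in control hair cells and 27.7, 27.0 and 29.2 in control non-hair cells, giving a log2 difference of 3.00 ± 0.11 at an adjusted p of 9.57e-10 (limma, Benjamini-Hochberg). With the added 1 removed, the non-hair cell level was 12.1% of that in hair cells. Bbs5, the phosphoinositide-binding subunit, scored 39.4, 37.8 and 42.7 against 11.6, 11.7 and 9.30, a log2 difference of 1.88 ± 0.14. Both had groups that did not overlap. Bbs4 differed by 1.02 ± 0.08, Bbs9 by 0.86 ± 0.08 and Bbs2 by 0.83 ± 0.09. Bbs7 scored 14.9, 15.7 and 15.9 against 14.4, 13.8 and 15.4, groups that overlapped, with a log2 difference of 0.09. Of the chaperonin-like genes, Bbs10 was higher by 0.70 ± 0.14 and Bbs12 was not called at 0.20 ± 0.20.

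All 3 tectonics were higher in hair cells. Tctn3 scored 53.0, 53.0 and 54.5 in control hair cells and 18.9, 16.9 and 18.1 in control non-hair cells, giving a log2 difference of 1.57 ± 0.10. Tctn2 scored 80.6, 78.2 and 73.9 against 32.1, 25.1 and 29.1, a difference of 1.44. Tctn1 had the smallest difference, 0.89 ± 0.08, and 25.5% of its exonic bases also lie in genes of the other strand. Whether the counting used strand is not given in the sources used here, so reads of such genes may be mixed.

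**Figure D2:**
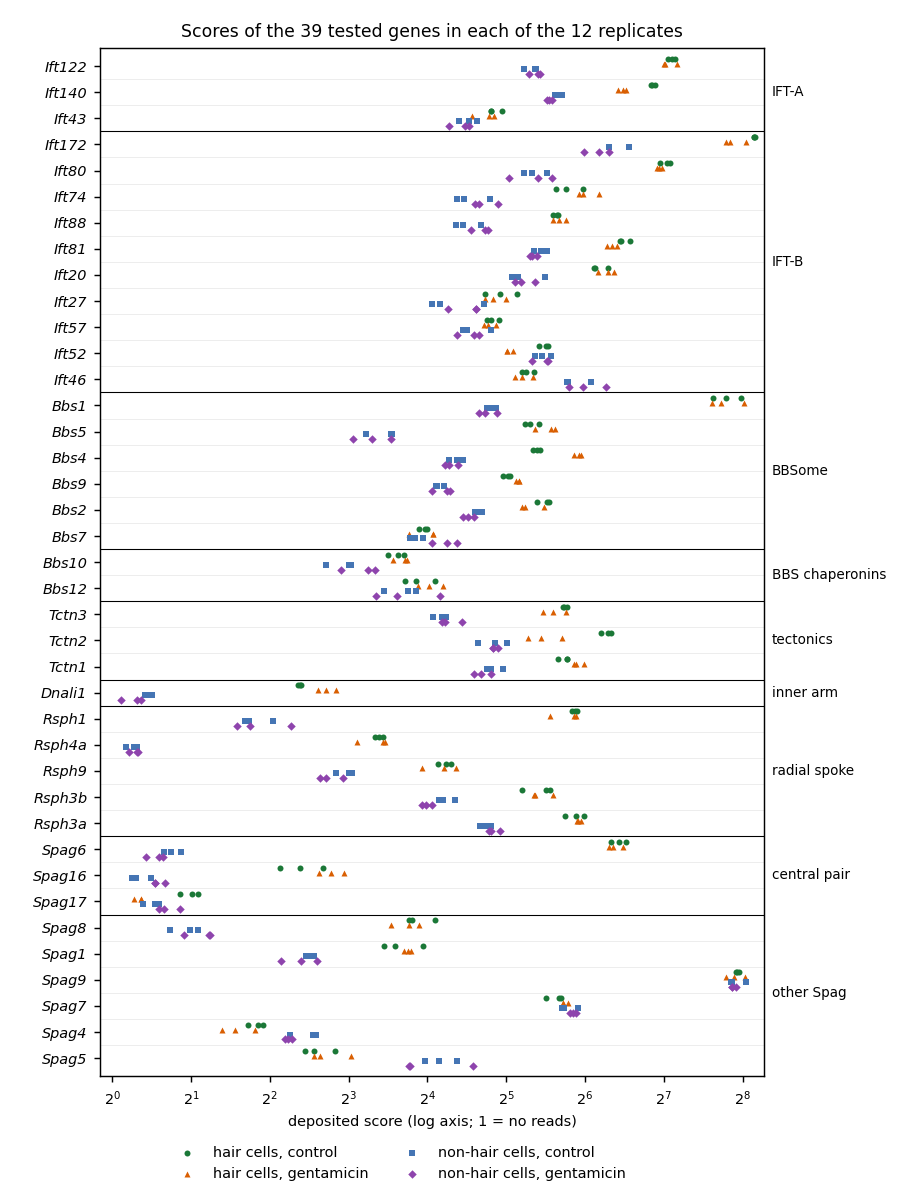
Scores of the 39 tested members in each of the 12 replicates on a log axis, with 1 the level of no read. Spag6 lies between 79.4 and 91.8 in the 6 hair cell replicates and between 1.35 and 1.84 in the 6 non-hair cell replicates.

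The motile axoneme genes included the largest differences, and several were close to the floor in non-hair cells. Spag6, which codes for a central pair protein, scored 91.8, 80.2 and 86.5 in control hair cells and 1.58, 1.67 and 1.84 in control non-hair cells. This gave a log2 difference of 5.67 ± 0.11 at an adjusted p of 5.28e-12 (limma, Benjamini-Hochberg), and the non-hair cell level above the floor was 0.817% of that in hair cells. This symbol is also an older name of Spag6l, a related gene, so that the identity of the measured gene is uncertain. Spag16, another central pair gene, was much lower in level. It scored 6.38, 4.38 and 5.24 against 1.41, 1.24 and 1.19, a log2 difference of 2.04 ± 0.15, which rose to 3.56 when 0.1 was added in place of 1. Spag17 was near the floor throughout, with 2.13, 1.81 and 2.02 against 1.46, 1.52 and 1.31 and only 67 reads in control hair cells. Its difference of 0.48 ± 0.11 rose to 1.05 with the smaller offset, and 15.7% of its exonic bases overlap genes of the other strand.

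The 5 tested radial spoke genes were all higher in hair cells. Rsph1, a spoke head gene, scored 59.8, 57.1 and 58.8 in control hair cells and 3.23, 3.34 and 4.13 in control non-hair cells, giving a log2 difference of 4.05 ± 0.17 at an adjusted p of 2.56e-09 (limma, Benjamini-Hochberg). Rsph4a, also of the spoke head, scored 10.8, 10.1 and 10.5 against 1.13, 1.21 and 1.25, a log2 difference of 3.13 ± 0.12. It rested on 646 reads in control hair cells and 15 in control non-hair cells, and the difference became 5.05 with 0.1 added in place of 1. The groups of both genes were far apart. Rsph9 differed by 1.26 ± 0.13. Rsph3a and Rsph3b differed by 1.14 ± 0.08 and 1.19 ± 0.11, and the split of reads between them is uncertain, since 54.4% and 62.4% of their 50-base stretches also occur in other genes, each other among them. Rsph6a scored between 1.00 and 1.62 in every replicate.

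Dnali1, a light intermediate chain of the inner dynein arm, was low and higher in hair cells. It scored 5.13, 5.23 and 5.29 in control hair cells and 1.33, 1.36 and 1.42 in control non-hair cells. This gave a log2 difference of 1.93 ± 0.11 at an adjusted p of 2.4e-08 (limma, Benjamini-Hochberg), and 3.20 with 0.1 added. Multiciliated cells are rich in the same proteins. The 8 listed markers of these cells that had a value summed to 229.7 to 248 in control hair cells and to 65.3 to 98.7 in control non-hair cells, and 3 of them, Ccdc153, Tmem212 and Sec14l3, had under 100 reads in all 12 replicates together. Of the 5 that were tested, 4 were called higher in hair cells and Tppp3 was called lower, at -3.37, so the list did not move one way. Its part in the member values was not tested.

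The other Spag genes showed no common direction. Of the 6 tested, 2 were higher, 2 lower and 2 not called, with a median log2 difference of -0.07. Spag8, a microtubule-associated protein of sperm and cilia, scored 17.1, 13.6 and 14.0 in control hair cells and 1.66, 1.99 and 2.12 in control non-hair cells, a difference of 2.95 ± 0.16. Spag1, needed to assemble dynein arms, differed by 1.15 ± 0.15. Per kilobase of exon, the control hair cell level was 8.35 for Spag8 and 1.05 for Spag1. Spag5, a spindle protein of dividing cells, scored 5.91, 7.12 and 5.47 against 17.7, 20.8 and 15.7, a log2 difference of -1.55 ± 0.23. The 10 listed markers of dividing cells were all lower in hair cells too, with summed scores of 26.2 to 37.8 in control hair cells and 347 to 387 in control non-hair cells, and their part in the Spag5 value was not tested. Spag4, a nuclear envelope protein, differed by -0.63 ± 0.14, while Spag7 and the kinase scaffold Spag9 were not called at -0.16 and 0.01.

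Levels can be compared roughly between genes after the floor is subtracted and the score is divided by exonic length in kilobases. That length joins all annotated exons of a gene, and the transcripts present may be shorter, by an amount that was not measured. On that scale the control hair cell level of the IFT-B genes ran from 5.86 for Ift46 to 46.9 for Ift20, and that of IFT-A from 13.2 for Ift122 to 16.9 for Ift43. The BBSome subunits, which assemble into one complex, ran from 2.69 for Bbs7 to 29.1 for Bbs1. The motile axoneme genes were the most uneven. Rsph1 reached 42.0 per kilobase and Spag6 reached 25.1, next to 2.60 for Rsph4a, 1.98 for Dnali1, 0.641 for Spag16 and 0.116 for Spag17. In control non-hair cells Spag6, Dnali1, Rsph4a, Spag16 and Spag17 were each at or below 0.205 per kilobase.

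**Figure D3:**
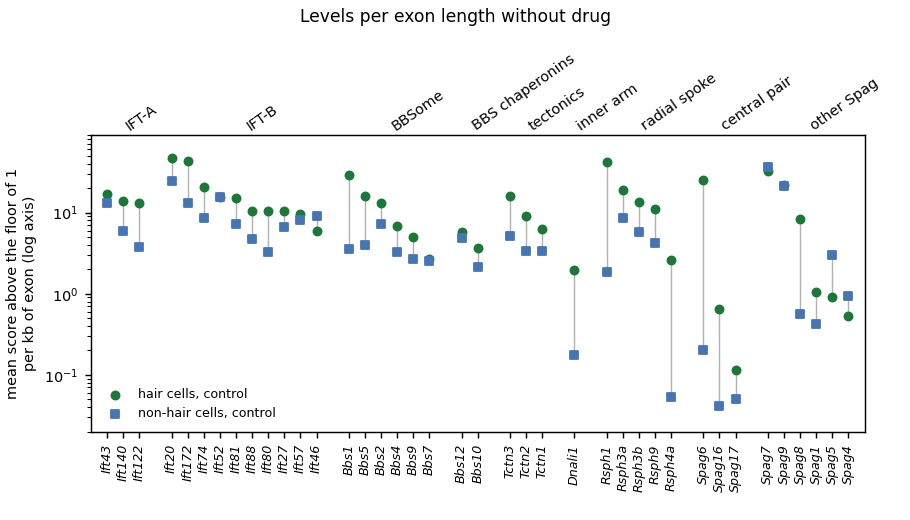
Score above the floor per kilobase of exon, on a log axis, in both populations without drug for the members by role. The IFT-B genes in hair cells lie between 5.86 and 46.9, whereas the central pair genes lie between 0.116 and 25.1.

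The genes of the same machinery that carry other symbols were placed alongside. Of 108 such symbols, 96 had a row and 91 were tested, of which 77 were higher in control hair cells and 5 lower, with a median log2 difference of 1.63. The other axonemal genes had the highest median, 2.93, with 20 of 20 higher. The dynein arm assembly factors had a median of 1.96 with 8 of 8 higher. The minimum of 100 reads applied here too, so genes with few non-hair cell reads were tested only where hair cells were high. The Dnahc genes, the heavy chains missing from the members, were higher in 4 of 5 for the outer arm, with a median of 2.06, and in 4 of 6 for the inner arm, where 1 was lower. The transition zone genes had a median of 1.19 with 13 of 15 higher and 1 lower. The kinesin and dynein motors of IFT had a median of 1.06 with 8 of 11 higher. The largest differences were those of Ttc21a, an IFT-A subunit, of Hydin, a central pair protein, and of Foxj1, the master regulator of motile cilia. Ttc21a scored 541, 554 and 519 against 2.32, 2.86 and 2.51, a difference of 7.72, and the values for Hydin and Foxj1 were 6.47 and 5.49. Ttc21b, the close relative of Ttc21a, was the lowest at -1.80, followed by Cc2d2a at -1.41 and Dnahc1 at -1.16.

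The promoters of the members were read for the X-box, the sequence bound by the RFX transcription factors that govern cilium genes. The motif was written as the arms GTTNCC and GGNAAC with 2 bases between them. It is its own reverse complement, so both strands were read at once, and no other motif was searched. The windows run from 250 bases before the start to 50 after it in RefSeq on GRCm38.p6. Spag6 was left out of this search, because its symbol is also an older name of Spag6l. Of 33 other members with a promoter in the table, 8 held the motif with at most 1 of the 10 fixed letters changed. That is 24.2%, against 2.89% of all 27025 genes there. With at most 2 changes the counts were 17 of 33, or 51.5%, against 15.8%. A match is a description of letters and not a bound site. Up to 30 bases around the motif are shown for the 8 members, with the 14 motif bases in capitals, because 3 of the 6 BBSome promoters are among them, as are 2 of 3 tectonics but none of the 4 radial spoke promoters.
Bbs1, chr19:4906605-4906634, minus strand: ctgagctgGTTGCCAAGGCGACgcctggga
Bbs4, chr9:59353464-59353493, minus strand: ctcagctgGTCGCCCGGGAAACggtcggct
Bbs7, chr3:36613489-36613518, minus strand: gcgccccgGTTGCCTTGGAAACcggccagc
Ift57, chr16:49699199-49699228, plus strand: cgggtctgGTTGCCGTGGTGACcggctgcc
Spag16, chr1:69826859-69826888, plus strand: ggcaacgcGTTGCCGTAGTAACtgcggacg
Spag5, chr11:78301397-78301426, plus strand: ctcactcgGTAACCGGGGGAACggagccac
Tctn1, chr5:122264411-122264432, minus strand: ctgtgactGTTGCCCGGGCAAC
Tctn2, chr5:124598679-124598708, plus strand: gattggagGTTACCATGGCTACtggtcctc
Bbs7 and Tctn1 matched every fixed letter. Among the members shown, Bbs1 differed between the populations by 3.00 log2 units, Tctn1 by 0.89 and Bbs7 by 0.09, and the Spag5 difference was -1.55.

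Gentamicin moved few of these genes in hair cells. Of 39 members, 2 were called higher and 4 lower after 3 h, or 5.13% and 10.3%, against 12.7% and 14.8% of all genes tested. The median log2 change was -0.04 in the members and -0.09 over all genes, and 33 were not called. The all-gene split depends on scaling, since 46.1% of all calls were higher as deposited and 63.6% when replicates were scaled to their total reads. Under that scaling Spag16 and Tctn1 joined the members called higher, with 4 higher and 4 lower. The 6 called members came from different roles, namely 2 of IFT, 1 of the BBSome, 1 tectonic and 2 of the motile axoneme.

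**Figure D4:**
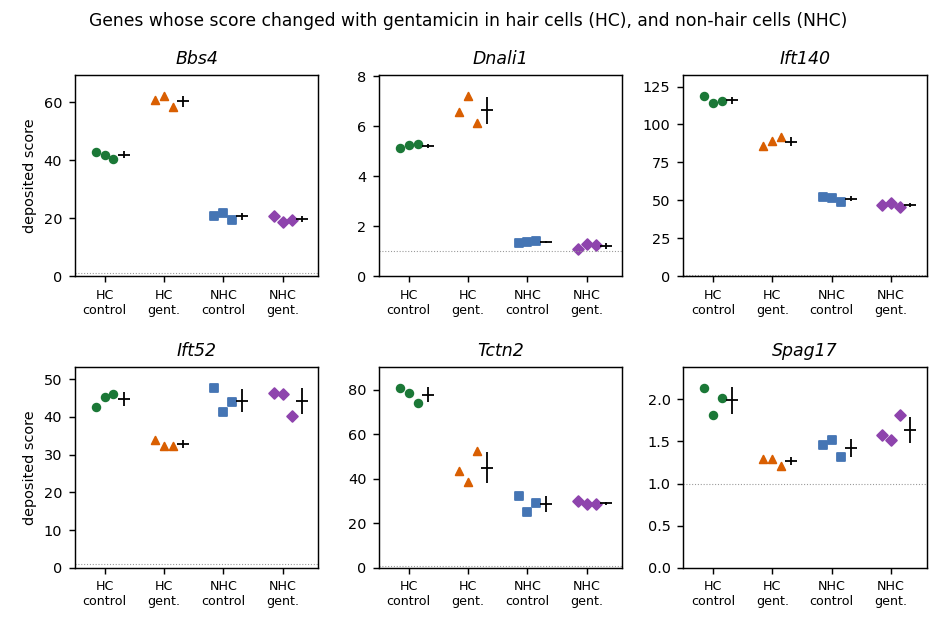
Scores of the 6 members called after gentamicin in hair cells, by replicate in the 4 groups, each gene on its own linear axis from 0. Bbs7 and Ift172, called in non-hair cells, are not shown. Tctn2 lies between 73.9 and 80.6 in control hair cells and between 38.7 and 52.3 in gentamicin-treated hair cells.

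Bbs4 rose with gentamicin in hair cells. The gene, at chr9:59321990-59353508 on the minus strand of GRCm38, codes for the BBSome subunit that links the complex to centriolar satellites. It scored 43.0, 41.8 and 40.6 in control and 60.7, 62.0 and 58.3 in gentamicin-treated hair cells, without overlap. The log2 change was 0.53 ± 0.08, or 1.44-fold, at an adjusted p of 0.000498 (limma, Benjamini-Hochberg), and the call was kept under every alternative in which it was tested. The other 5 BBSome subunits were not called in hair cells, which does not show that they were unchanged.

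Dnali1 was the other riser. It scored 5.13, 5.23 and 5.29 in control and 6.57, 7.19 and 6.13 in gentamicin-treated hair cells, without overlap, from 287 and 427 reads. The log2 change of 0.34 ± 0.11 had an adjusted p of 0.0317 (limma, Benjamini-Hochberg). The call was lost in 5 of the 6 fits without a library, in all but the one without gentamicin-treated hair cells replicate 3, with changes of 0.28 to 0.35 and adjusted p of 0.062 to 0.11 (limma, Benjamini-Hochberg).

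Tctn2 had the largest fall on the scores as deposited. The gene, at chr5:124598749-124627738, codes for a tectonic of the transition zone. It scored 80.6, 78.2 and 73.9 in control and 43.5, 38.7 and 52.3 in gentamicin-treated hair cells, without overlap. The log2 change was -0.80 ± 0.11, which left 0.573 of the control level, at an adjusted p of 0.00051 (limma, Benjamini-Hochberg). The other tectonics, Tctn1 and Tctn3, were not called at 0.18 and -0.13.

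Spag17 also fell, from 2.13, 1.81 and 2.02 to 1.29, 1.29 and 1.21, without overlap. The log2 change was -0.65 ± 0.11 at an adjusted p of 0.00115 (limma, Benjamini-Hochberg). It rested on 67 reads in control and 20 in treated hair cells, and the change became -1.57 with 0.1 added in place of 1, past that of Tctn2. Treated hair cells thus lay below control non-hair cells for this gene.

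The remaining fallers were IFT genes. Ift52, at chr2:163017354-163046141, scored 42.6, 45.3 and 46.2 in control and 33.9, 32.3 and 32.2 in treated hair cells, a log2 change of -0.44 ± 0.08, or 0.735-fold, at an adjusted p of 0.00178 (limma, Benjamini-Hochberg). Ift140, at chr17:25016085-25099495, scored 118, 114 and 115 in control and 85.5, 89.3 and 91.4 in treated hair cells, a change of -0.39 ± 0.05, or 0.765-fold. Neither pair of groups overlapped, and both genes kept their calls under every alternative. Each belongs to a different IFT complex, and the other 11 IFT genes were not called.

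The promoters of the members called in hair cells that matched the X-box with 2 letters changed are shown for comparison with those above. Bbs4 and Tctn2 were already among the closer matches.
Dnali1, chr4:125065644-125065673, minus strand: gaggagggGTTTCCATGGTGATcgcaaaca
Ift140, chr17:25015961-25015990, plus strand: tggggcgtGTTGTGACGGCAACctcgcgcc
Ift52, chr2:163017337-163017366, plus strand: gatacagtCTTTACCGGGAAACgggccagc
Spag17, chr3:99885200-99885229, plus strand: tagactttGTTCCCAAGAGAAAcagaggag
All 6 members called in hair cells thus held the motif with at most 2 changes, and they moved in both directions. The share was 51.5% of the 33 members with a promoter read, these 6 among them, and 15.8% of all genes there. Of the members called below in non-hair cells, Bbs7 matched every fixed letter and the closest match of Ift172 had 3 changes. The share was not tested.

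Markers of other cells moved in the same comparison. All 11 supporting cell markers had log2 changes below 0 in treated hair cells, with a median of -0.69. Of these, 3 were called lower, namely Hes5 by 2.02, Lfng by 1.17 and Gjb2 by 0.77 on the log2 scale. The summed score of the list was 2555 to 3202 in control and 1325 to 2615 in treated hair cells. The 8 mesenchyme markers summed to 261 to 559.6 and then to 179.9 to 226, and the 6 glial markers to 229 to 283 and then to 118 to 194. All 8 and all 6 had log2 changes below 0, of which 4 and 3 were called lower. The 10 hair cell markers summed to 12665 to 13127 in control and to 10776 to 11945 in treated hair cells. The macrophage markers summed to 4.70 to 5.82 in control and to 15.4 to 21.7 in treated hair cells, where 1 of 7, Cd68, was called higher by 2.52. The endothelial markers summed to 14.5 to 26.8 and then to 7.83 to 13.3, with 1 of 6 called lower. Their part in the member values was not tested.

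Among the 91 tested genes with other symbols, 8 were called higher and 9 lower in treated hair cells, or 8.79% and 9.89%, both below the shares of all genes tested given above. Ttc21b, an IFT-A subunit, fell from 7.73, 8.70 and 7.87 to 5.25, 3.51 and 5.24, a log2 change of -0.82, and Traf3ip1, an IFT-B subunit also called IFT54, fell by 0.58. The genes listed with IFT-A, not all of them subunits, moved both ways, since Wdr19 fell by 0.27 and Tulp3 by 0.54 while Wdr35 rose by 0.28. Ttc26 fell by 0.42 and the kinesin subunit Kif3c by 0.51, and the dynein-2 intermediate chain Wdr60 rose by 0.62. Of the remaining genes, Arl6, which recruits the BBSome, rose by 0.40, Tmem17 by 0.40, the assembly factor Lrrc6 by 0.56, the heavy chains Dnahc7a and Dnahc7b by 0.59 and 0.69, and the RFX factor Rfx3 by 0.45. Tmem231 fell by 0.34, Dnahc1 by 0.54 and Dnahc10 by 0.68.

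In non-hair cells, 1 member was called higher and 1 lower after gentamicin, against 3.18% and 2.26% of all genes tested. Bbs7 scored 14.4, 13.8 and 15.4 in control and 19.0, 20.7 and 16.7 in treated non-hair cells, without overlap, a log2 change of 0.37 ± 0.12 at an adjusted p of 0.161 (limma, Benjamini-Hochberg). Ift172 scored 93.8, 93.8 and 79.0 against 72.6, 78.8 and 63.4, which did not overlap although 79.0 and 78.8 nearly met, with a change of -0.31 ± 0.10 at an adjusted p of 0.155 (limma, Benjamini-Hochberg). At an adjusted p below 0.05, 0 members passed in limma, with 3 at an unadjusted p below 0.05, while 0.342% of all genes passed. The Bbs7 call was kept in 1 of 6 fits without a library, that without treated non-hair cells replicate 3, and ranged from 0.29 to 0.45. The Ift172 call was kept in the fits without control non-hair cells replicate 3 or treated non-hair cells replicate 2, and ranged from -0.40 to -0.23. Of all calls in non-hair cells 58.4% were higher as deposited and 69.1% when scaled to total reads.

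The responses of both populations were then set against each other, with the difference itself tested at an adjusted p below 0.05. It shares its samples with the comparisons above and is not an independent result. Of 39 members, 2 differed upward and 4 downward, against 6.85% and 6.56% of all genes tested, and these were the same 6 genes called in hair cells. Bbs4 changed by 0.53 in hair cells and -0.07 in non-hair cells, a difference of 0.60 ± 0.11 at an adjusted p of 0.00629 (limma, Benjamini-Hochberg). Tctn2 changed by -0.80 and 0.02, a difference of -0.82 at an adjusted p of 0.0096, and Spag17 by -0.65 and 0.20, a difference of -0.84 at an adjusted p of 0.0066 (limma, Benjamini-Hochberg). These 3 kept their calls under every alternative in which they were tested. With 0.1 added in place of 1, the difference of Spag17 became -2.05 and kept its call. That of Dnali1 became 1.10 but was no longer called. Ift52 gave -0.44 ± 0.11, Dnali1 gave 0.53 ± 0.15 and Ift140 gave -0.26 ± 0.08, with adjusted p of 0.0264, 0.0424 and 0.0449 (limma, Benjamini-Hochberg), and their calls were lost in 7, 10 and 11 of the 12 fits without a library. Ift140 also lost its call under both other scalings and without the variance trend, and Ift140 and Dnali1 lost theirs with the replicate number as a block. The calls that were lost for Ift140 were all but that without treated hair cells replicate 3, and those for Dnali1 all but that one and the one without treated non-hair cells replicate 2. Ift52 kept its call in the fits without replicate 1 of control hair cells, treated hair cells or control non-hair cells, or replicate 3 of treated hair cells or treated non-hair cells. Of all genes whose responses differed, 51.1% were higher as deposited and 67.7% when scaled to total reads, where 3 members were higher and 3 lower.

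**Figure D5:**
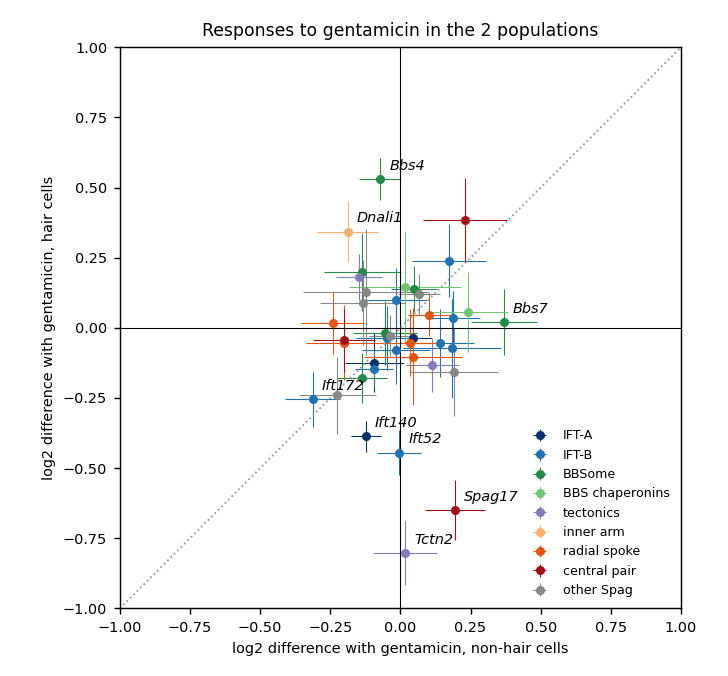
Log2 change with gentamicin in hair cells on one axis against that in non-hair cells on the other for the 39 tested members, with bars for the standard error and names for the members called in either population. Tctn2 lies at -0.80 in hair cells and 0.02 in non-hair cells, and Bbs4 at 0.53 and -0.07.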

How the data were processed

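The symbol rule for the members reads no expression value, but it, the role groups and the marker lists were chosen with earlier results of these data known. Single-end reads of 50 bp were quality trimmed and mapped by the authors to mm10 (TopHat2, PartekFlow), who deposited 1 signal value per gene and replicate. The methods name RPKM, but the deposited signal was not divided by gene length: in each replicate 82.9% to 83.9% of low values, up to 20 reads, were whole multiples of 1 step within 0.1, so reads were recovered and the limma model used the log2 signal. The tests ran on 16086 genes with 100 or more reads summed over the replicates, in limma 3.58.1 (R 4.3.3) with all 4 groups in 1 model and a variance trend. The script was tested on simulated data. Replicates are the columns of each group's table, and nothing in the labels says that they came from separate litters, so p-values measure the spread between these samples. Positions and exonic lengths are from GENCODE on GRCm38, and promoters from RefSeq on GRCm38.p6.

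All tested members were named in at least a count. Named with values were those called with gentamicin or in the difference, and the 10 called members with the largest difference in each direction between the populations. Of other symbols, those called in treated hair cells and the 3 largest in each direction were named. Same-numbered replicates of the control groups of both populations deviated together, with correlations of 0.216, 0.316 and 0.200 over genes, so a fit with the replicate number as a block was run, in which the same 33 members were called between the populations. No table column of the authors' own comparisons was used.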

Additional observations from a re-analysis of the deposited data

Results flagged for a closer look

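The results below are those in which gentamicin changed a gene differently in hair cells and in non-hair cells, by the test of that difference in limma at a Benjamini-Hochberg adjusted p below 0.05. With 3 replicates a group, whether a replicate stands apart from the rest was not tested.

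Among the members, the response of hair cells minus that of non-hair cells was 0.60 for Bbs4, 0.53 for Dnali1, -0.26 for Ift140, -0.44 for Ift52, -0.84 for Spag17 and -0.82 for Tctn2 on the log2 scale. Of the 91 tested genes with other symbols, 3 differed upward and 2 downward, or 3.30% and 2.20%. Both shares were below those of all genes tested, 6.85% and 6.56%. The response difference among them was -1.01 for Ttc21b, an IFT-A subunit, and -0.62 for Traf3ip1. For the kinesin subunit Kif3a it was 0.56, for the dynein-2 subunit Wdr60 0.53 and for the RFX factor Rfx3 0.72. Rfx3 scored 105, 94.1 and 114 in control and 142, 151 and 135 in treated hair cells, while it scored 36.0, 38.5 and 42.2 in control and 32.0, 33.6 and 31.7 in treated non-hair cells. The hair cell groups did not overlap, and neither did the non-hair cell groups. The treated non-hair cells scored lower than their control, but that change was not called.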

How the results depend on the processing

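The population counts held under every alternative, with 27 to 30 members higher and 2 to 3 lower. Their median log2 difference of 1.14 became 1.25 under median-of-ratios scaling, which moved the median of all genes from -0.12 to -0.01, and ranged from 1.02 to 1.15 without single libraries. In hair cells with gentamicin, the 2 members called higher became 4 when scaled by total reads, with a median of 0.061 in place of -0.04, and 1 with an offset of 0.1, with a minimum of 1000 reads, with the replicate block or with the compared groups alone, and 1 to 2 without single libraries. In non-hair cells, the 1 member called higher became 0 by adjusted p, with the replicate block and with the compared groups alone, and the 1 called lower became 0 by adjusted p, without the variance trend and with the compared groups alone. Both ranged from 0 to 1 without single libraries. The difference called higher for 2 members became 1 with an offset of 0.1, with a minimum of 1000 reads and with the replicate block, and was 1 to 2 without single libraries, and that called lower for 4 was 2 to 4. With the replicate block, Dnali1 was lost in hair cells, and Dnali1 and Ift140 in the difference, where Ift140 was also lost under total-read scaling, median-of-ratios scaling and no variance trend. The correlations of same-numbered replicates with and without gentamicin were 0.04, 0.05 and 0.04 in hair cells. In non-hair cells they were 0.21, -0.23 and 0.68, and control replicate 1 with treated replicate 2 gave 0.57. These values do not settle whether the numbers paired those samples. The difference also draws on the control groups, whose numbers did deviate together, and on the treated groups, at 0.38, -0.04 and -0.02. The causes of these moves were not tested. Spag17, Spag16, Spag4 and Dnali1 fell under the minimum of 1000 reads, which limits how firmly their calls can be read.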
